A study of Homo sapiens with 6 samples.

Results

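Collagens and laminins are the chains from which basement membranes and connective tissue fibrils are built, and 56 of the 20030 genes in the deposited count table encode such chains. The genes were chosen by symbol, every collagen (COL, a number, A, a number; 44 genes) and every laminin alpha, beta or gamma chain (LAMA, LAMB or LAMC with a number; 12 genes). Of the 56 genes, 26 (19 collagens and 7 laminins) held 60 or more counts summed over all 6 libraries and are described library by library, and 30 held fewer. The summed counts selected which genes are shown, and the family was singled out with the comparison of these libraries already known, so the fold changes below are a description of these genes and no independent evidence for the family. At the limit, LAMA4 (63 counts) was the lowest gene inside it and COL9A3 (54 counts) the highest outside it.

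RNA came from cells labelled H929 (NCI-H929), a human multiple myeloma line. IGF2BP1-KD cells (3 libraries) carried a lentiviral shRNA against IGF2BP1, an RNA-binding protein that reads N6-methyladenosine and stabilises its target mRNAs, and IGF2BP1-NC cells (3 libraries) are labelled negative control. The study's methods describe stable lines, made with a lentiviral vector that expresses an shRNA from a U6 promoter and carries puromycin resistance. They do not say what the control vector held, and which shRNA sequence the knockdown libraries carry is not given in the sources used here. Neither the labels nor the methods say that the 3 libraries of a group came from separate cultures, so the p-values measure the spread between these libraries, which may be technical.

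IGF2BP1 itself (chr17:48996558-49056145, GRCh38) was measured at 48.1, 43.7 and 49.1 FPKM (fragments scaled by gene length and library size) in IGF2BP1-NC and 13.5, 12.9 and 12.8 FPKM in IGF2BP1-KD. All knockdown libraries were below all control libraries, with a log2 fold change of -1.85 (SE 0.065; adjusted p = 4.8e-08, edgeR quasi-likelihood test with Benjamini-Hochberg adjustment over the 11994 genes tested), a level 3.62-fold lower. The total counts of the libraries lay between 16885449 and 18112179, so that a count of 0 allows up to 3 counts, or 0.166 to 0.178 CPM (counts scaled by library size), counting error only. The labelled cell type was set against marker genes. Of 12 plasma cell markers, 7 (TNFRSF17, IRF4, CD38, POU2AF1, CD27, FCRL5 and TNFRSF13B) did not exceed 3 counts in any library, and CD27 was at 0 in all 6. The other 5 were detected, XBP1, a transcription factor gene that many secretory cells use, at 1181 to 2689 counts, PRDM1 at 29 to 60, SDC1 at 35 to 62 and MZB1 at 10 to 27, while SLAMF7 had 4 to 5 counts in IGF2BP1-NC and 42 to 181 in IGF2BP1-KD (log2 fold change 4.37, SE 0.8, adjusted p = 0.00878; 0.0579 and 0.0588 without the first and the third control library). All 15 erythroid markers lay above 1 CPM, the transcription factor gene GATA1 at 186 ± 9.71 FPKM in IGF2BP1-NC and 158 ± 2.45 FPKM in IGF2BP1-KD (SD, n = 3 each). Of the 15, 3 were higher in IGF2BP1-KD (20%, beside 13.7% of all genes tested) and 6 lower (40%, beside 14.5%). GATA1 was among the lower genes (log2 fold change -0.25, SE 0.058, adjusted p = 0.00918; 0.0503 without the second knockdown library). SLC4A1 and EPB42, genes of the red cell membrane, were 5.64-fold and 3.32-fold higher. The part of these shifts in the results below was not tested. Since 7 of the 12 plasma cell markers were near 0 and all 15 erythroid markers were present, the label was not borne out by most of its markers, and the libraries are named here only by their group.

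A collagen is a trimer of alpha chains wound into a triple helix. Fibril-forming collagens (types I, II, III, V and XI, with the later types XXIV and XXVII) make the cables of connective tissue, network-forming type IV and the laminin heterotrimers (an alpha, a beta and a gamma chain) make the sheets of the basement membrane, and type VI makes beaded microfilaments between them. Collagens are best known as products of fibroblasts and other stromal cells, while blood cells meet them mainly as ligands in the bone marrow matrix. A trimer needs all of its chains, so the level of each chain gene is given beside its partners.

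Sequences at the starts of transcription are shown for some of the genes whose level differed between the groups. These are COL6A3 and COL15A1, higher in IGF2BP1-KD, and LAMA5 and COL4A2, lower, the last sharing its stretch with COL4A1, which had no call. COL6A5, COL3A1 and COL1A1, also lower, are not shown, so the stretches do not serve as a comparison of higher with lower genes. They run 5′ to 3′ on the coding strand for the 250 bases before the RefSeq start (GRCh38.p14), and capitals mark the letters searched on either strand: the CCAAT box, the GC box with the letters GGGCGG and the TATA box with the letters TATAAA. No marked letters belonged to more than 1 motif. Shown first are COL6A3 (chr2:237414165-237414414, minus strand), COL15A1 (chr9:98943657-98943906, plus strand) and LAMA5 (chr20:62367313-62367562, minus strand), and last the whole 126 bases between the divergent starts of COL4A1 and COL4A2 (chr13:110307158-110307283, plus strand, the strand of COL4A2).
COL6A3: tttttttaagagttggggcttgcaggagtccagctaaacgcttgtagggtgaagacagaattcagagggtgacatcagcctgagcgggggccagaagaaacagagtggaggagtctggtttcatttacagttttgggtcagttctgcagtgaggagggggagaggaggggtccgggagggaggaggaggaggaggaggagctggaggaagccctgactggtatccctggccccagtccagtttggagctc
COL15A1: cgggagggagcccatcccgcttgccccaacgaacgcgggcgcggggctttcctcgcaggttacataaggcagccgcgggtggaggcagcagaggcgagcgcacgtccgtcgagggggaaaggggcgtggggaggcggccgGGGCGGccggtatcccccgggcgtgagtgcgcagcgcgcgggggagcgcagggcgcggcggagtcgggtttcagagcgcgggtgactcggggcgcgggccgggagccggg
LAMA5: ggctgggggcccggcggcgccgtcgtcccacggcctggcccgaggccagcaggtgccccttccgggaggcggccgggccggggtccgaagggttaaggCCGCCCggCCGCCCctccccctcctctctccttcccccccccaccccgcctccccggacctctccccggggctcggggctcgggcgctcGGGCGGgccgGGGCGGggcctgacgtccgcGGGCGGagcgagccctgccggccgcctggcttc
COL4A1-COL4A2: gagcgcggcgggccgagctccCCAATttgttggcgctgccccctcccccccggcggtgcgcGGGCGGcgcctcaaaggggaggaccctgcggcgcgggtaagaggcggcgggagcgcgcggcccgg

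The COL6A3 stretch held none of the 3 motifs and was 56.0% G or C. The COL15A1 stretch held 1 GC box (76.8% G or C), the LAMA5 stretch 5 GC boxes (82.8%), and the stretch between COL4A1 and COL4A2 held 1 CCAAT and 1 GC box (80.2%). In the RefSeq table of 35116 starts, 32.0% of the stretches of 250 bases before a start held CCAAT, 42.6% a GC box and 10.7% TATAAA, and of stretches of 126 bases the shares were 21.1%, 34.6% and 5.87%. The table matched 41 of the 56 collagen and laminin genes. Over windows of 300 bases (250 before and 50 after the start), 27 of these 41 genes had a GC box, 14 CCAAT and 7 TATAAA. Of all windows, 45.0%, 34.6% and 11.5% held these motifs. The first are counts of genes and the second shares of windows, so they are not like for like. These matches are letters in a window and were not tested as binding sites.

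The family was expressed at a low level and unevenly. Its 56 genes took 42996 counts in all, of which LAMA5 held 28.3% and COL18A1 28.1%, and collagens made up 0.0204% to 0.0266% and laminins 0.0145% to 0.0228% of the counts of a library. Per length, COL18A1 led with a mean of 16.8 FPKM over the 6 libraries, followed by LAMA5, LAMB1 (3.9), LAMB2 (3.22), COL6A5 (2.02) and COL4A2 (1.95). COL18A1 was above LAMA5, and LAMA5 above LAMB1, in every library, whereas from COL6A5 down to COL1A1 (1.3 FPKM) the ranges of neighbouring genes overlapped. In all 12 genes had a mean of at least 1 FPKM, and 14 of the 26 shown genes lay under it. This order depends on the gene length that the deposited values imply. With the union of exons in GENCODE release 44 as the length, an alternative chosen after seeing the data, COL18A1 (13.6) and LAMA5 (8.11) still led, but LAMB2 (2.73) and COL6A5 (2.24) came before LAMB1 (1.4), COL4A2 (0.653) fell under 1, and 8 genes reached a mean of 1. Fold changes between the groups do not depend on the length.

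Of the 56 genes, 28 passed the filter on low counts and were tested, the 26 shown and COL21A1 and COL9A3 below the limit. Of the 28, 2 were higher in IGF2BP1-KD (COL6A3 and COL15A1; 7.14%, beside 13.7% of all genes tested) and 5 lower (COL6A5, COL3A1, COL1A1, COL4A2 and LAMA5; 17.9%, beside 14.5%). In 5 of the 28 every knockdown library was above every control library, beside 22.4% of all genes tested, and in 5 every one was below, beside 23.2%. The log2 fold change was above 0 for 13 and below 0 for 15, with a median of -0.13 against -0.0048 for all genes. The 21 tested genes without a call ran from -1.57 (COL1A2) to 1.2 (COL9A2). In bulk RNA, a lower level in every cell and fewer cells that express the gene cannot be told apart.

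**Figure D1:**
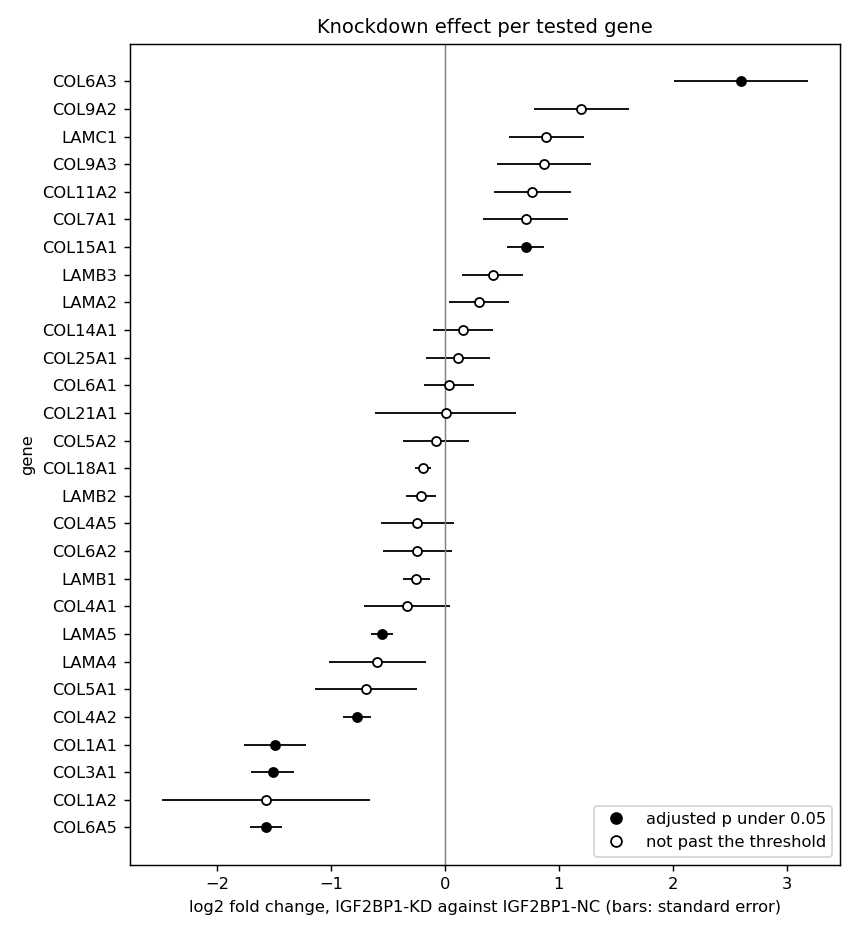
Log2 fold change, IGF2BP1-KD minus IGF2BP1-NC, of the 28 tested collagen and laminin genes; bars are the standard error of the edgeR fit, and filled points mark an adjusted p under 0.05. The 2 genes called higher are COL6A3 and COL15A1 and the 5 called lower are COL6A5, COL3A1, COL1A1, COL4A2 and LAMA5.

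Among the fibril-forming collagens, 6 of 11 genes were shown, and COL1A1 and COL3A1 were lower in IGF2BP1-KD. COL1A1 (chr17:50184101-50201631), the alpha-1 chain of type I collagen, had 243, 221 and 135 counts in IGF2BP1-NC and 91, 70 and 51 in IGF2BP1-KD. Every knockdown library was below the lowest control library, and the level went from 1.92 ± 0.585 to 0.683 ± 0.182 FPKM (SD, n = 3 each). The log2 fold change was -1.49 (SE 0.27, adjusted p = 0.00344), 2.82-fold lower. COL3A1 (chr2:188974373-189012746), whose product forms the homotrimeric type III collagen, had 247, 325 and 217 counts in IGF2BP1-NC and 106, 94 and 77 in IGF2BP1-KD. The groups were apart here too, at 2.73 ± 0.617 and 0.966 ± 0.143 FPKM, with a log2 fold change of -1.51 (SE 0.19, adjusted p = 0.00028), 2.84-fold lower.

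COL1A2 (chr7:94394895-94431227), the partner chain of COL1A1 in type I collagen, had the same size of difference without passing the test. It had 179, 362 and 204 counts in IGF2BP1-NC and 47, 185 and 16 in IGF2BP1-KD. The second knockdown library lay within the range of the controls, and the other two were below it. The log2 fold change was -1.57 (SE 0.91, adjusted p = 0.277); with 1 library left out it ran from -1.08 without the third knockdown library (adjusted p = 0.425) to -3.0 without the second (adjusted p = 0.0257), the only omission that passed the test. The FPKM ratio of COL1A1 to COL1A2 was 1.24, 0.556 and 0.603 in IGF2BP1-NC and 1.76, 0.345 and 2.91 in IGF2BP1-KD, so the balance of the chains varied more between the knockdown libraries than between the groups.

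Of the minor fibrillar chains, COL5A1 and COL5A2 help to set the diameter of type I fibrils and COL11A2 is a type XI chain of cartilage. COL5A1 had 17, 43 and 16 counts in IGF2BP1-NC and 18, 10 and 19 in IGF2BP1-KD (log2 fold change -0.69, SE 0.45, adjusted p = 0.273). COL5A2 had 25 to 36 and 24 to 35 counts (-0.08, SE 0.29), and COL11A2 17 to 30 and 28 to 60 counts (0.77, SE 0.34, adjusted p = 0.114), with overlapping groups in all of these genes. COL3A1 and COL5A2 are neighbours on chromosome 2, 19.2 kb apart, and only COL3A1 of the pair passed the test, although the difference between the genes was not tested. The fibril-forming genes under 60 counts were COL2A1 (6 counts), COL5A3 (10), COL24A1 (11), COL27A1 (17) and COL11A1 (0).

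**Figure D2:**
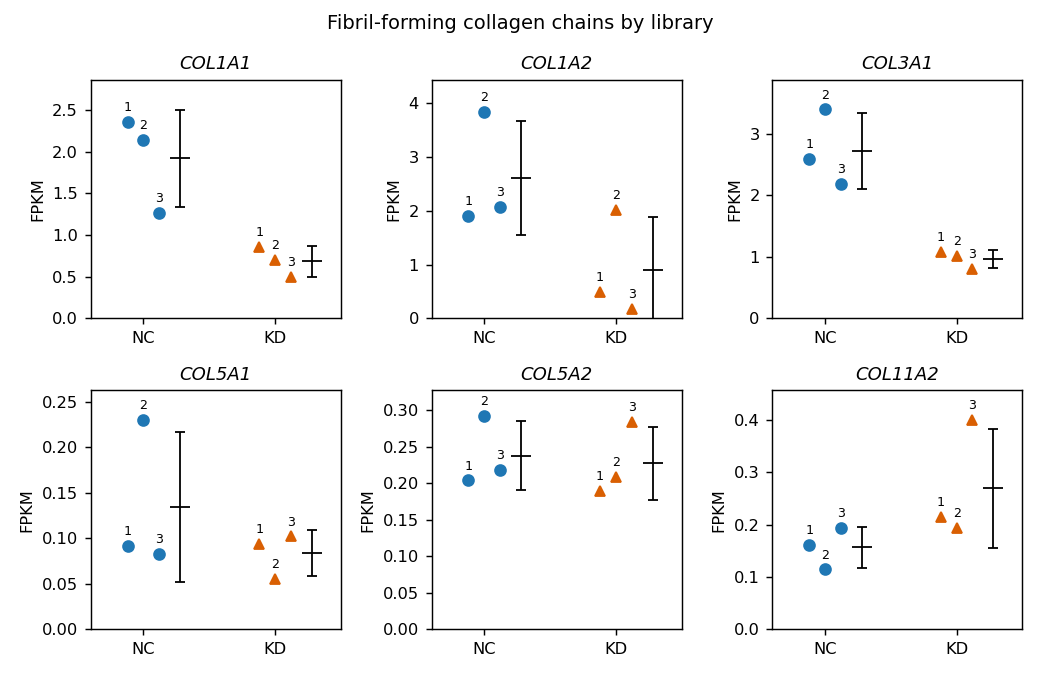
FPKM of the fibril-forming collagen genes in each library, with the library number beside each point and the group mean ± SD as a black bar (axes start at 0, where the bar of COL1A2 in IGF2BP1-KD is cut). COL1A1 and COL3A1 have no overlap between the groups, while the second knockdown library of COL1A2 lies among the controls.

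Collagen VI had 1 gene higher and 1 lower. A type VI monomer joins alpha-1 and alpha-2 with one more chain, which can be alpha-3 or, in some tissues, alpha-5 or alpha-6. COL6A5 (chr3:130345672-130484846) had 633, 503 and 555 counts in IGF2BP1-NC and 181, 226 and 160 in IGF2BP1-KD. Every knockdown library was under 250 counts and every control library above 500, 3.01 ± 0.379 against 1.02 ± 0.207 FPKM. The log2 fold change was -1.57 (SE 0.14, adjusted p = 6.4e-05), 2.96-fold lower, the smallest adjusted p among the 28 genes.

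COL6A3 (chr2:237324018-237414164) went the other way. It had 140, 75 and 61 counts in IGF2BP1-NC and 388, 347 and 932 in IGF2BP1-KD, that is 0.463 ± 0.22 and 2.81 ± 1.65 FPKM. All knockdown libraries were above all controls, and the third knockdown library stood well above the other two. The log2 fold change was 2.60 (SE 0.59, adjusted p = 0.0355), 6.05-fold higher. This call was the least stable of the 7: with 1 library left out at a time it held without the third knockdown library (adjusted p = 0.008) and was lost without the first (0.0565) or second knockdown library (0.0518) and without the first (0.0647), second (0.0959) or the third control library (0.11). The log2 fold change lay between 2.01 and 3.03 over these fits.

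The shared chains showed no such difference. COL6A1 had 73, 57 and 52 counts in IGF2BP1-NC and 58, 54 and 74 in IGF2BP1-KD (0.04, SE 0.22), and COL6A2 had 60, 47 and 40 and 37, 28 and 59 (-0.24, SE 0.3), the groups overlapping in both. The FPKM ratio of COL6A5 to COL6A3 was 4.83, 7.16 and 9.71 in IGF2BP1-NC and 0.498, 0.695 and 0.183 in IGF2BP1-KD, so the ratio was lower in every knockdown library than in every control library. Which of these chains was the more abundant depends on the lengths: with GENCODE lengths the ratio was 10.2, 15.1 and 20.4 in IGF2BP1-NC and 1.05, 1.46 and 0.386 in IGF2BP1-KD, so COL6A5 led in every control library either way, and COL6A3 led in every knockdown library on the deposited scale but only in the third on the other. COL6A3 stood at 0.714, 0.49 and 0.437 of COL6A1 in the controls and at 2.49, 2.39 and 4.69 of it in the knockdown libraries. COL6A6, 31.9 kb from COL6A5, had 0, 2 and 1 counts in IGF2BP1-NC and 6, 12 and 10 in IGF2BP1-KD; at 31 counts it was not tested with the filter, and without it the adjusted p was 0.00723.

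**Figure D3:**
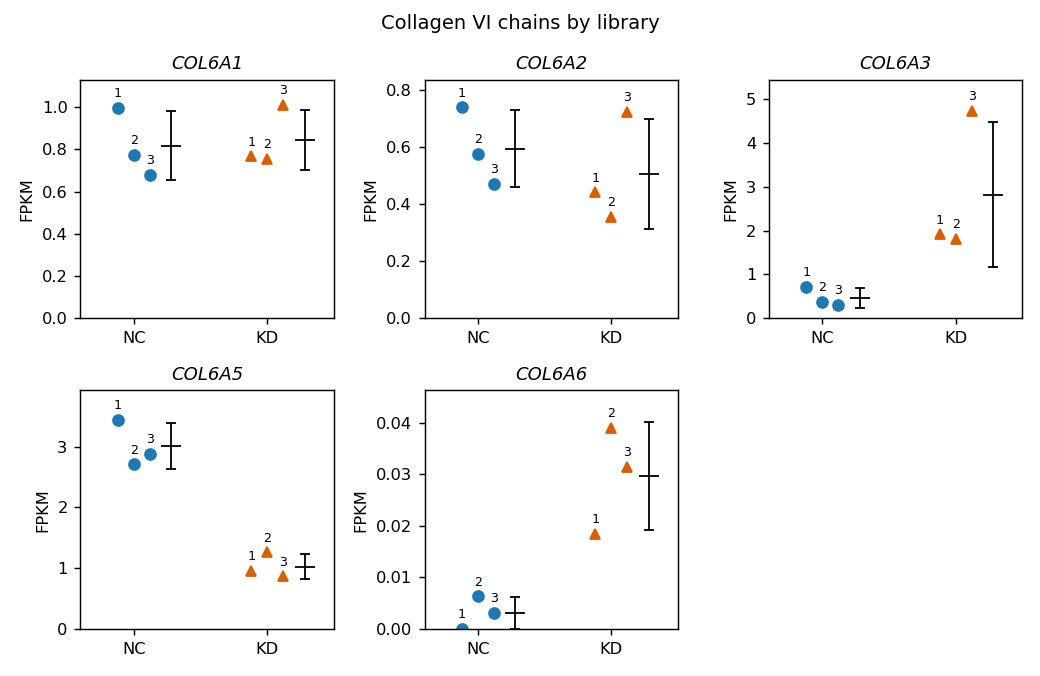
FPKM of the collagen VI chain genes in each library, with the library number beside each point and the group mean ± SD as a black bar. COL6A5 falls from 3.01 to 1.02 FPKM and COL6A3 goes from 0.463 to 2.81 FPKM, with the third knockdown library the highest, while COL6A1 and COL6A2 overlap.

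Of the basement membrane collagen IV genes, 3 of 6 were shown and COL4A2 was lower. COL4A2 (chr13:110307284-110513209) and COL4A1 (chr13:110148963-110307157) encode the partners of the common alpha-1, alpha-1, alpha-2 trimer and are transcribed away from each other from the 126 bases printed above. COL4A2 had 297, 269 and 269 counts in IGF2BP1-NC and 169, 142 and 177 in IGF2BP1-KD. The groups were apart, at 2.45 ± 0.185 and 1.45 ± 0.136 FPKM, with a log2 fold change of -0.77 (SE 0.12, adjusted p = 0.00113), 1.7-fold lower. COL4A1 had 27, 22 and 33 counts and 34, 20 and 11 counts, which overlapped (-0.33, SE 0.38, adjusted p = 0.552).

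COL4A2 exceeded COL4A1 in every library, by an FPKM ratio of 26.6, 29.5 and 19.7 in IGF2BP1-NC and 12.0, 17.1 and 38.8 in IGF2BP1-KD. The size of this ratio depends on the gene lengths behind the FPKM values, since the deposited values imply 6463 bases for COL4A2 and 15600 for COL4A1, whereas the union of exons in GENCODE release 44 is 19271 and 14662 bases (3.78 to 12.2 with these lengths). The raw counts of COL4A2 were also higher in every library. COL4A5, a chain of the kidney and other specialised basement membranes, had 38, 29 and 29 and 40, 19 and 22 counts (-0.24, SE 0.32). COL4A3 and COL4A4 were at 0 in all 6 libraries, and COL4A6 had 0 in each control library and 2, 3 and 2 counts in the knockdown libraries.

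The multiplexins are basement membrane collagens that carry heparan or chondroitin sulfate, and both were shown. COL15A1 (chr9:98943907-99070787) had 101, 129 and 108 counts in IGF2BP1-NC and 167, 171 and 212 in IGF2BP1-KD. Every knockdown library was above the highest control, with 1.13 ± 0.154 and 1.86 ± 0.259 FPKM, a log2 fold change of 0.71 (SE 0.16, adjusted p = 0.00813) and a 1.63-fold higher level. COL18A1 (chr21:45405165-45513720), the source of the fragment endostatin and the most abundant of the family per length, had 1921, 2194 and 2324 counts and 1933, 1765 and 1925 counts. Its level was 17.9 ± 1.38 FPKM in IGF2BP1-NC and 15.8 ± 0.444 in IGF2BP1-KD, a log2 fold change of -0.19 (SE 0.073, adjusted p = 0.0759) that did not pass the test; over the omissions it ran from -0.14 without the third control library (adjusted p = 0.232) to -0.26 without the first (adjusted p = 0.00464), the only one that passed.

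The other collagens shown gave no call. COL9A2, a chain of the fibril-associated type IX collagen, had 28, 22 and 8 counts in IGF2BP1-NC and 44, 28 and 62 in IGF2BP1-KD, and its levels of 0.256 ± 0.14 and 0.593 ± 0.221 FPKM did not overlap once scaled by library. Its log2 fold change was 1.2 (SE 0.42, adjusted p = 0.0573), 2.3-fold higher. COL14A1, which sits on the surface of type I fibrils, had 143, 147 and 115 and 129, 101 and 221 counts (0.16, SE 0.26). COL7A1, the anchoring fibril collagen of the skin, had 44, 55 and 36 and 51, 49 and 121 counts (0.71, SE 0.37, adjusted p = 0.175), the third knockdown library being the highest in both genes. COL25A1, a transmembrane collagen, had 22 to 27 and 20 to 31 counts (0.12, SE 0.28).

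Among the laminins, LAMA5 (chr20:62309065-62367312), the alpha chain of the common adult basement membrane laminins, was lower in IGF2BP1-KD. Its counts were 2708, 2358 and 2181 in IGF2BP1-NC and 1816, 1640 and 1481 in IGF2BP1-KD, and its levels 13.5, 11.7 and 10.4 FPKM and 8.77, 8.39 and 7.35 FPKM. The highest knockdown library was below the lowest control library, and the log2 fold change was -0.55 (SE 0.096, adjusted p = 0.00243), 1.46-fold lower. The other alpha chains were far lower per length and gave no call. LAMA2, of muscle basement membrane, had 25, 22 and 23 and 29, 30 and 27 counts, without overlap between the groups (0.30, SE 0.26, adjusted p = 0.419), and LAMA4, of vessel walls, had 18, 11 and 9 and 11, 6 and 8 counts (-0.59, SE 0.43).

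The beta and gamma chains that join LAMA5 did not pass the test. LAMB1 (chr7:107923799-108003161) had 587, 480 and 423 counts in IGF2BP1-NC and 415, 434 and 397 in IGF2BP1-KD, the second knockdown library lying within the controls (-0.25, SE 0.12, adjusted p = 0.148); with 1 library left out it ran from -0.11 without the first control library (adjusted p = 0.433) to -0.36 without the third (adjusted p = 0.0385), the only omission that passed the test. LAMB2, which takes its place in neuromuscular and kidney laminins, had 420, 335 and 300 and 308, 307 and 294 counts (-0.21, SE 0.13, adjusted p = 0.25). The FPKM ratio of LAMB1 to LAMB2 stayed between 1.17 and 1.25 in all 6 libraries, and with GENCODE lengths, where LAMB2 is the higher, between 0.498 and 0.529.

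LAMC1, the gamma chain of most laminins, was read at 24, 24 and 37 counts in IGF2BP1-NC and 47, 33 and 77 in IGF2BP1-KD (0.89, SE 0.33, adjusted p = 0.0651). Per length LAMA5 was 76.9, 67.0 and 40.2 times LAMC1 in the controls and 26.3, 33.9 and 13.1 times in the knockdown libraries, so that of LAMA5, LAMB1, LAMB2 and LAMC1 the gamma chain was the lowest in every library. LAMB3, a chain of an epithelial laminin, had 162, 124 and 90 and 155, 120 and 228 counts (0.42, SE 0.27, adjusted p = 0.276), and its partner LAMA3 had 6 counts summed over all libraries. Laminins summed to 25.3, 21.1 and 18.3 FPKM in IGF2BP1-NC and 17.7, 17.4 and 17.4 FPKM in IGF2BP1-KD, and collagens to 35.8, 39.3 and 34.4 and to 28.9, 29.2 and 33.8 FPKM.

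Of the 30 genes under 60 counts, 6 were at 0 in every library (COL4A3, COL4A4, COL8A1, COL10A1, COL11A1 and COL22A1), and 24 held between 1 and 54 counts. COL9A3 had 5, 8 and 6 counts in IGF2BP1-NC and 13, 10 and 12 in IGF2BP1-KD (0.87, adjusted p = 0.137), and COL26A1 had 0, 1 and 1 and 4, 4 and 18, not tested with the filter. Others were COL21A1 (48 counts), COL9A1 (43), COL28A1 (37), LAMC3 (23), COL8A2 (16), COL12A1 (14), COL20A1 (13) and COL16A1 (11). LAMA1, LAMB4, COL13A1, COL17A1, COL19A1 and COL23A1 had under 10 counts each.

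The third knockdown library was the farthest from the others of its group in 14 of the 26 shown genes, beside 44.2% of all genes tested. Over the same 26 genes it was the highest knockdown library in 14 and the lowest in 9, shares not counted over all genes. The first control library was the farthest of its group in 12 of 26, against 46.3%. Markers of cells that are known to make collagen were given the same look. Of 14 fibroblast and mural cell markers none was at 0 in all libraries, and FBLN5 and DPT did not exceed 3 counts in any library. The sum of the 14 was 8.95 to 12.0 CPM in IGF2BP1-NC and 9.0 to 11.7 CPM in IGF2BP1-KD. TAGLN (353 counts, log2 fold change 0.08) and RGS5 (244, 0.34) held the most counts of this sum. Of the 7 that could be tested, 0 were called by edgeR or DESeq2 (edgeR called 13.7% of all genes tested higher and 14.5% lower). PDGFRB was the 1 called by limma-voom and the 1 with an unadjusted edgeR p under 0.05 (log2 fold change -1.2, adjusted p = 0.0564). PDGFRB, THY1, POSTN and OGN were lower in IGF2BP1-KD without overlap once scaled by library, and RGS5 was higher without overlap. Of all genes tested, 23.2% were lower without overlap and 22.4% higher. THY1, POSTN and OGN had at most 6, 4 and 5 counts in any library. DCN, for the fibril proteoglycan decorin, had 22, 11 and 24 and 17, 11 and 25 counts, LUM 18, 13 and 5 and 12, 2 and 9, and PDGFRB 12, 12 and 11 and 6, 5 and 4. Of 10 endothelial markers, CDH5, KDR, CLDN5, EMCN and ROBO4 had at most 3 counts in any library. The sum of the 10 was 24.5 to 37.5 CPM in IGF2BP1-NC and 28.0 to 34.3 CPM in IGF2BP1-KD, mostly PECAM1 (428 to 629 counts). ESAM (log2 fold change 1.06, edgeR adjusted p = 0.0928) and TIE1 (at most 8 counts) were higher in IGF2BP1-KD without overlap. ROBO4 (at most 2 counts) was lower without overlap. The part of such cells in the results was not tested.

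Genes that process collagen chains moved in both directions. Of 37 listed for biosynthesis and crosslinking, 28 were tested, 8 were higher (28.6%, beside 13.7% of all genes tested) and 5 lower (17.9%, beside 14.5%) in IGF2BP1-KD, with a median log2 fold change of -0.15. With 1 library left out at a time, 6 to 8 were called higher and 3 to 5 lower. SERPINH1, the collagen chaperone HSP47, had 2133, 2235 and 2158 counts in IGF2BP1-NC and 3675, 3420 and 4398 in IGF2BP1-KD. Its level rose from 44.3 ± 1.63 to 79.0 ± 10.1 FPKM (log2 fold change 0.82, SE 0.084, adjusted p = 0.00011). TMEM38B, an endoplasmic reticulum cation channel, rose by 0.51 on the log2 scale (SE 0.076, adjusted p = 0.00082) and P4HA2, a prolyl hydroxylase subunit, by 0.5 (SE 0.13, adjusted p = 0.0166; 0.068 and 0.06 without the second and the third control library). SEC23A, a coat protein of the vesicles that export procollagen, had 618, 538 and 532 counts in IGF2BP1-NC and 264, 253 and 250 in IGF2BP1-KD, and its level fell from 7.33 ± 0.756 to 3.37 ± 0.0728 FPKM (-1.13, SE 0.096, adjusted p = 3.4e-05). The lysyl hydroxylase PLOD2 fell by 0.97 (SE 0.3, adjusted p = 0.0346), a call lost on leaving out any of the 6 libraries (0.0648 to 0.128), and the procollagen C-proteinase enhancer PCOLCE fell by 0.81 (SE 0.16, adjusted p = 0.00419).

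Of 18 receptors for collagens and laminins, 11 were tested, 2 were higher (18.2%, beside 13.7% of all genes) and 3 lower (27.3%, beside 14.5%). ANTXR1, a receptor that binds type VI and type I collagen, had 38, 21 and 25 counts in IGF2BP1-NC and 50, 58 and 74 in IGF2BP1-KD (1.12, SE 0.28, adjusted p = 0.0129; 0.0614 without the second control library), and the fibrillar collagen receptor kinase DDR2 had 94 to 104 and 124 to 193 counts (0.6, SE 0.18, adjusted p = 0.0309). The DDR2 call was lost without the third knockdown library (0.39, adjusted p = 0.123) and without the second (0.0992) or the third control library (0.0653). GP6, the platelet collagen receptor, fell by 0.92 on the log2 scale (adjusted p = 0.028; 0.0921 and 0.117 without the second and the third knockdown library), ANTXR2, a receptor for type IV collagen, laminin and type VI collagen, by 0.74 (adjusted p = 0.00155) and ITGB1, the beta subunit shared by the collagen and laminin integrins, by 0.28 (adjusted p = 0.00383). Dystroglycan (DAG1), a laminin receptor, was at 5.9 ± 0.588 and 6.26 ± 0.238 FPKM and had no call.

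Of 20 partners in the basement membrane and matrix, 10 were tested and 2 were lower in IGF2BP1-KD (20%, beside 14.5% of all genes tested), while 0 (beside 13.7%) were called higher by edgeR, DESeq2 or limma-voom and 0 of them had an unadjusted p under 0.05 with a higher level. TNC (tenascin-C) had 19, 28 and 12 counts in IGF2BP1-NC and 7, 2 and 4 in IGF2BP1-KD (-2.15, SE 0.51, adjusted p = 0.0103; 0.0525 without the second control library). NID1 (nidogen 1), which links laminin to type IV collagen, had 29, 18 and 28 and 8, 7 and 17 counts (-1.21, SE 0.4, adjusted p = 0.0402) and kept its call only without the third knockdown library, the other 5 omissions giving 0.0521 to 0.142. The basement membrane proteoglycans were far more abundant and gave no call, HSPG2 (perlecan) at 20.2 ± 2.61 and 22.2 ± 2.8 FPKM and AGRN (agrin) at 34.1 ± 2.26 and 33.2 ± 1.22 FPKM.

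Of 30 genes for the breakdown of matrix and its control, 15 were tested, 2 were higher (13.3%, beside 13.7% of all genes) and 3 lower (20%, beside 14.5%). TIMP1, an inhibitor of matrix metalloproteinases, rose from 75.7 ± 1.21 to 117 ± 1.76 FPKM (log2 fold change 0.61, SE 0.054, adjusted p = 4.1e-05), and BSG (basigin), an inducer of metalloproteinases, rose by 0.22 (SE 0.066, adjusted p = 0.0285; 0.11, 0.0691 and 0.0595 without the first, second and the third knockdown library). MMP17, a membrane-anchored metalloproteinase, fell from 5.42 ± 0.458 to 2.91 ± 0.646 FPKM (-0.91, adjusted p = 0.00189), MRC2, which takes up collagen for degradation, from 6.76 ± 0.26 to 3.89 ± 0.255 FPKM (-0.81, adjusted p = 0.00012), and MMP15 from 6.49 ± 0.272 to 4.74 ± 0.499 FPKM (-0.46, adjusted p = 0.00608).

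**Figure D4:**
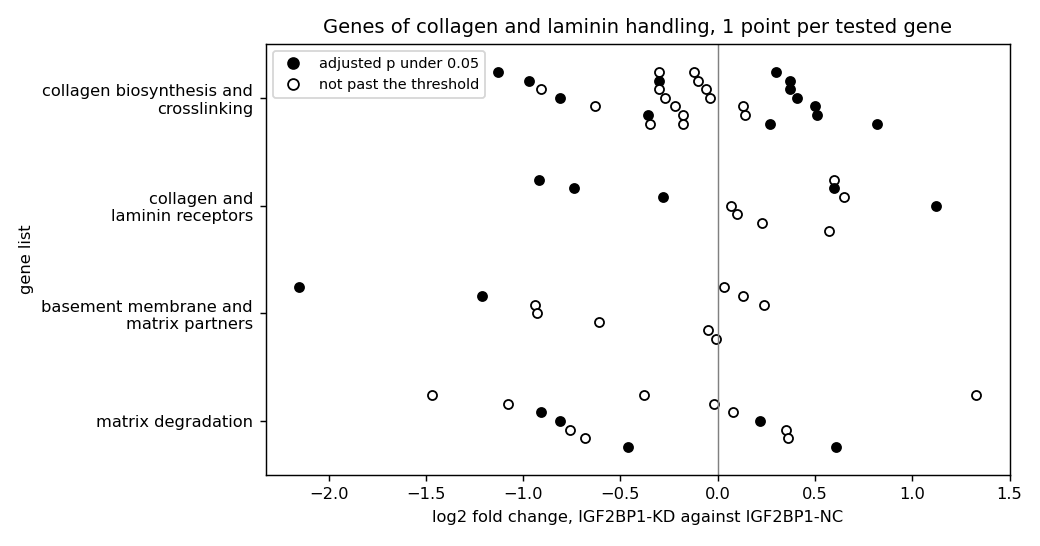
Log2 fold change, IGF2BP1-KD against IGF2BP1-NC, of the tested genes of the lists (biosynthesis and crosslinking, receptors, basement membrane and matrix partners, matrix degradation), 1 point per gene; filled points have an adjusted p under 0.05. Filled points lie on both sides of 0 in each list except the partners, whose 2 called genes are lower.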

How the data were processed

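RNA-seq counts and FPKM values of 6 libraries, 3 IGF2BP1-NC and 3 IGF2BP1-KD as grouped by the labels, were analysed. Trimmomatic (trimming), HISAT2 (mapping, GRCh38) and HTSeq (counts per gene) were used by the authors, and the deposited counts are whole and not normalised. The deposited FPKM values are per the study's methods from Cufflinks, and equalled each count over a fixed length per gene and the total of the library. Tool versions, the annotation release and the strand setting of the counting are not given in the sources used here, so reads of overlapping or antisense genes could not be separated.

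Counts were tested in R 4.3.3 with edgeR 4.0.16 (TMM, filterByExpr, robust quasi-likelihood, two-sided), with the Benjamini-Hochberg adjusted p taken over 11994 genes and 0.05 as the threshold, after tests on simulated counts. FPKM, as mean ± SD of 3 libraries, served for levels between genes. The alternatives were DESeq2 1.42.0, no filter, upper-quartile factors, scaling by library size alone, at least 10 counts in every library, limma 3.58.1 (voom, and trend on log2(FPKM + 1) or log2(FPKM + 0.1) for genes of mean FPKM at least 1), the replicate number as a block, each library left out, and, added after seeing the data, GENCODE exon lengths in place of those behind the FPKM values. Total counts of 16885449 to 18112179 set the precision, and 3 counts were taken as what a 0 allows. Every gene with 60 or more counts is described, in full where the adjusted p was under 0.05 or the groups did not overlap with a 2-fold change, the others by name, and from each list the called genes with the 3 largest rises and 3 largest falls. The values of 1 gene under 60 counts are not reported here. The genes and lists were chosen with earlier results of these data known. Gene positions and sequences are from RefSeq (GRCh38.p14) and exon lengths from GENCODE release 44. Figures used Python 3.11.15 and matplotlib 3.10.9.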

Additional observations from a re-analysis of the deposited data

How the results depend on the processing

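Of the collagen and laminin genes, 2 were called higher as reported, against 4 with DESeq2, 5 without the filter on low counts, 1 with limma-voom and 2 to 3 with 1 library left out. The genes behind the 2 to 3 changed between the omissions, since COL15A1 was called in all 6 and COL6A3 only without the third knockdown library. The number called lower was 5 as reported and 5 or 6 in each alternative. As reported, 28 of these genes were tested, and more were tested without the filter. The share called over all genes is given for the reported fit only (13.7% higher and 14.5% lower). COL15A1, COL6A5, COL3A1, COL1A1, COL4A2 and LAMA5 kept their calls in all 9 other settings and all 6 omissions, whereas COL6A3 lost its call without the filter (adjusted p = 0.0566), with limma-voom (0.0619) and with the replicate block (0.115), and the cause was not tested. COL9A2 passed with DESeq2 (0.0452), without the filter (0.0406) and without the first control (0.0226) or the second knockdown library (0.0467). LAMC1 passed without the filter (0.0435), with the block (0.0454) and without the second knockdown library (0.0412). Over the omissions the sign changed for COL14A1 (-0.22 to 0.36), COL25A1 (-0.003 to 0.26), COL5A2 (-0.26 to 0.1) and COL6A1 (-0.11 to 0.19), each far from a call. Same-numbered libraries of both groups did not deviate together (correlations -0.052, 0.036 and -0.106, beside -0.067 to 0.095 for differently numbered libraries). The reported fit used no pairing, although these correlations cannot tell whether same-numbered libraries were prepared together. With the replicate block, 2 genes were higher (COL15A1 and LAMC1) and 5 lower. Over all fold changes of the 26 shown genes and IGF2BP1, 351 alternative values kept direction and side of the threshold, 8 lost a call, 10 gained one and 6 changed sign. COL6A6 (0.00723) and COL26A1 (0.00991), with 31 and 28 counts in all, were kept from the test by the filter and passed without it. With GENCODE exon lengths, added after seeing the data, the ratio of COL6A5 to COL6A3 passed 1 in the first (1.05) and second (1.46) knockdown library, and that of LAMB1 to LAMB2 fell below 1 in all 6 libraries (0.516, 0.529, 0.521, 0.498, 0.522 and 0.499).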
